A study of Homo sapiens with 3 samples.

Results

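Retinoic acid synthesis, breakdown and response were followed through 7 genes, CYP26A1, ALDH1A2, DHRS3, RARB, RARG, CRABP1 and CRABP2, chosen by their symbols among the 36601 genes listed in the deposited count matrices. The cells came from UCLA1, a human embryonic stem cell line long in use, and were grown under a Geltrex (basement membrane extract) overlay in a culture the submitters call GiMO, and were collected on day 1, day 2 and day 3. Each day is 1 droplet single-cell RNA library of 1 cell line with no replicate, so day, library and batch cannot be told apart. The series title concerns a timed BMP4 response of the embryonic disc, TFAP2A-positive cells and the epithelial to mesenchymal transition; the sample labels name no BMP4 dose, schedule or untreated control, and they list no retinoid. Levels are UMI counts scaled to the library total (CPM), where a UMI is 1 tagged RNA molecule, and the bracketed ranges are 95% intervals that cover counting error only.

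Retinoic acid is a vitamin A derivative that patterns the early embryo by binding nuclear receptors. Retinol is oxidised to retinal and then to retinoic acid. Aldehyde dehydrogenases such as ALDH1A2 carry out the last step, DHRS3 turns retinal back into retinol, and the cytochrome CYP26A1 inactivates retinoic acid. CRABP1 and CRABP2 bind retinoic acid inside the cell, CRABP2 being known for passing it to receptors and CRABP1 for holding it in the cytoplasm or leading it to breakdown. RARB and RARG are receptors that act as partners of the RXR proteins, and CYP26A1, RARB and DHRS3 are themselves textbook targets of the signal. In the gastrulating mouse embryo Cyp26a1 marks the early streak and anterior nascent mesoderm, and Aldh1a2 the later mesoderm.

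Receptor pairs bind tandem half-sites, and the promoters of CYP26A1 and RARB are shown because each holds one such pair close to a transcription start. Windows of 250 bases upstream of the RefSeq starts (GRCh38.p14) were searched on both strands for a pair of half-sites in the same orientation, with 5 bases between them. A half-site was AGGTCA as in the textbook motif, or AGTTCA as the first variant, or GGTTCA as another variant, or GGGTCA as the last variant. Such a pair occurred in 26 of 35116 windows (0.0740%), and in windows of 24 of 27305 genes (0.0879%). Among the windows of the 7 genes it occurred in 1 of 2 for CYP26A1, 90 to 74 bases upstream of the start at position 93073893 of chromosome 10 (the downstream of the annotated starts, so that this window lies within the gene), and in 1 of 4 for RARB, 53 to 37 bases upstream of the start at position 25428263 of chromosome 3. The searched letters were not in the windows of ALDH1A2, DHRS3, RARG, CRABP1 and CRABP2. Both stretches below are on the plus strand, the strand of the genes, and capitals mark the pair with its spacer; in CYP26A1 the half-sites read on the opposite strand, as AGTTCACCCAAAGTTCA.
CYP26A1 chr10:93073643-93073892: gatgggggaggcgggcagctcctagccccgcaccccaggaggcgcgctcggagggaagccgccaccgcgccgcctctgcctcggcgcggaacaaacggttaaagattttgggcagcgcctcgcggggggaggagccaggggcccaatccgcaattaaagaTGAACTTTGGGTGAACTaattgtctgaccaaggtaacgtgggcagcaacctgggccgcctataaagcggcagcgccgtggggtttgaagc
RARB chr3:25428013-25428262: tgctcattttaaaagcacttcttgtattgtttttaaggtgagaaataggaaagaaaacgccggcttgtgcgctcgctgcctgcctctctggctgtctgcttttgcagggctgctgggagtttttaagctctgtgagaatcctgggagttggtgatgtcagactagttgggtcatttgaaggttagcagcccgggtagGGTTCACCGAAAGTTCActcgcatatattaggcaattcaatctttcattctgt

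The 2 genes with this pair did not share a course, as the values by day show. A match is a description of the letters and not of binding.

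After filtering, 3533, 7224 and 6804 cells remained on day 1, day 2 and day 3, with medians of 41557, 15658 and 19225 UMIs per cell. The libraries shared 9 to 21 barcodes pairwise, among 4889, 10580 and 7860 deposited. A gene was called higher or lower between days when its CPM ratio was at least 1.5 and the interval excluded 1, and it was counted as measured if the larger of both levels reached 2 CPM. These calls compare the libraries and carry no p-value. In sums over a whole library, fewer cells of a type and less RNA per cell cannot be told apart. The day 1 comparisons depend on scaling: the median log2 ratio of all measured genes between day 2 and day 1 was 0.23 by total UMIs and -0.10 with TMM factors. The share of genes called higher then went from 21.3% to 9.06%, and the share called lower from 5.71% to 16.9%. For day 3 over day 1 the median went from 0.25 to -0.08.

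Between day 1 and day 2, CYP26A1, ALDH1A2, CRABP2 and RARG were called higher and none of the 6 measured genes was called lower, against 21.3% of all measured genes higher and 5.71% lower. With TMM factors 3 were called higher, without RARG, and DHRS3 lower. Between day 2 and day 3, ALDH1A2, CRABP2 and RARB were called higher and DHRS3 and CRABP1 lower, out of 7 measured, against 14.2% higher and 16.7% lower among all genes. Over the whole course, day 3 against day 1, 5 of the 7 genes passed upward and 2 downward, against 32.1% and 17.8% of all genes. The median log2 ratio of the measured members was 1.18, 0.37 and 1.13 in these 3 comparisons, beside 0.23, 0.01 and 0.25 over all genes.

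DHRS3, the reductase that returns retinal to the storage form, had 13.5 CPM on day 1 (12.9 to 14.0, 2227 UMIs), 9.04 CPM on day 2 (8.51 to 9.60) and 2.26 CPM on day 3 (2.02 to 2.53, 312 UMIs). It was lowest on day 3, and the 3 intervals did not overlap. Its level on day 3 was 3.99-fold lower than on day 2 (3.52 to 4.54). The step from day 1 to day 2 was 1.49-fold lower (1.38 to 1.60), just inside the call limit, and with TMM factors the ratio of day 2 to day 1 was 0.537, a call. DHRS3 lies on the minus strand of chromosome 1, from 12567910 to 12618210.

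ALDH1A2, the main embryonic retinal dehydrogenase, had 1.00 CPM on day 1 (0.856 to 1.17), 3.22 on day 2 (2.91 to 3.56) and 11.2 on day 3 (10.6 to 11.8). These levels rest on 166, 387 and 1541 UMIs. The ratio was 3.22 (2.67 to 3.88) for the first step and 3.47 (3.10 to 3.89) for the second, so the level was higher at each step. The gene spans positions 57953424 to 58497866 on the minus strand of chromosome 15, and 15 annotated genes overlap it, among them ALDH1A2-AS1, AQP9 and LIPC.

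CYP26A1, the enzyme that clears retinoic acid, had 0.852 CPM on day 1 (0.717 to 1.00, 141 UMIs), 26.8 CPM on day 2 (25.9 to 27.7, 3215 UMIs) and 34.7 CPM on day 3 (33.7 to 35.7, 4776 UMIs). It was low on day 1 alone. The first step was 31.4-fold (26.6 to 37.5), the largest of the 7 genes between any neighbouring days, and the second 1.29-fold (1.24 to 1.35), under the call limit. The gene lies on the plus strand of chromosome 10, from 93073475 to 93077885, and 1 further annotated gene overlaps it. After each cell was thinned to 5000 UMIs, 0.572% of cells on day 1 (0.349 to 0.881), 10.2% on day 2 (9.49 to 10.95) and 10.7% on day 3 (9.96 to 11.5) had a CYP26A1 UMI. Unthinned shares were 3.32%, 20.7% and 24.3%.

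The carriers moved in opposite directions. CRABP1 had 77.5 CPM on day 1 (76.2 to 78.9), 66.3 on day 2 (64.8 to 67.7) and 21.7 on day 3 (20.9 to 22.4), and day 3 was 3.06-fold lower than day 2 (2.93 to 3.19). CRABP2 had 17.7 CPM on day 1 (17.1 to 18.4), 75.4 on day 2 (73.8 to 77.0) and 168 on day 3 (166 to 170), higher 4.25-fold (4.07 to 4.43) and then 2.23-fold (2.17 to 2.28). There were thus 0.229 CRABP2 UMIs for each CRABP1 UMI on day 1, 1.14 on day 2 and 7.75 on day 3, a ratio within each library that does not depend on scaling. In thinned cells the share with a CRABP2 UMI went from 8.17% to 29.6% and 52.0%, and that with a CRABP1 UMI from 30.9% to 25.7% and 9.56%. CRABP1 is on chromosome 15 (78340353 to 78348225, plus strand) and CRABP2 on chromosome 1 (156699606 to 156705816, minus strand).

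Of the receptors, RARG had 12.8 CPM on day 1 (12.2 to 13.3), 20.4 on day 2 (19.6 to 21.2) and 25.6 on day 3 (24.7 to 26.4). The step to day 2 was 1.60-fold (1.51 to 1.70) by total UMIs and 1.28-fold with TMM factors, where it was not called. RARB stayed low, at 1.23 CPM on day 1 (1.07 to 1.41), 1.67 on day 2 (1.45 to 1.92) and 2.69 on day 3 (2.43 to 2.98), and its day 3 level was 1.61-fold that of day 2 (1.35 to 1.92). RARB spans positions 24687887 to 25597932 on the plus strand of chromosome 3, and RARG 53210567 to 53232980 on the minus strand of chromosome 12. CYP26A1 thus had its large step between day 1 and day 2 and RARB its only called neighbouring step between day 2 and day 3.

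**Figure D1:**
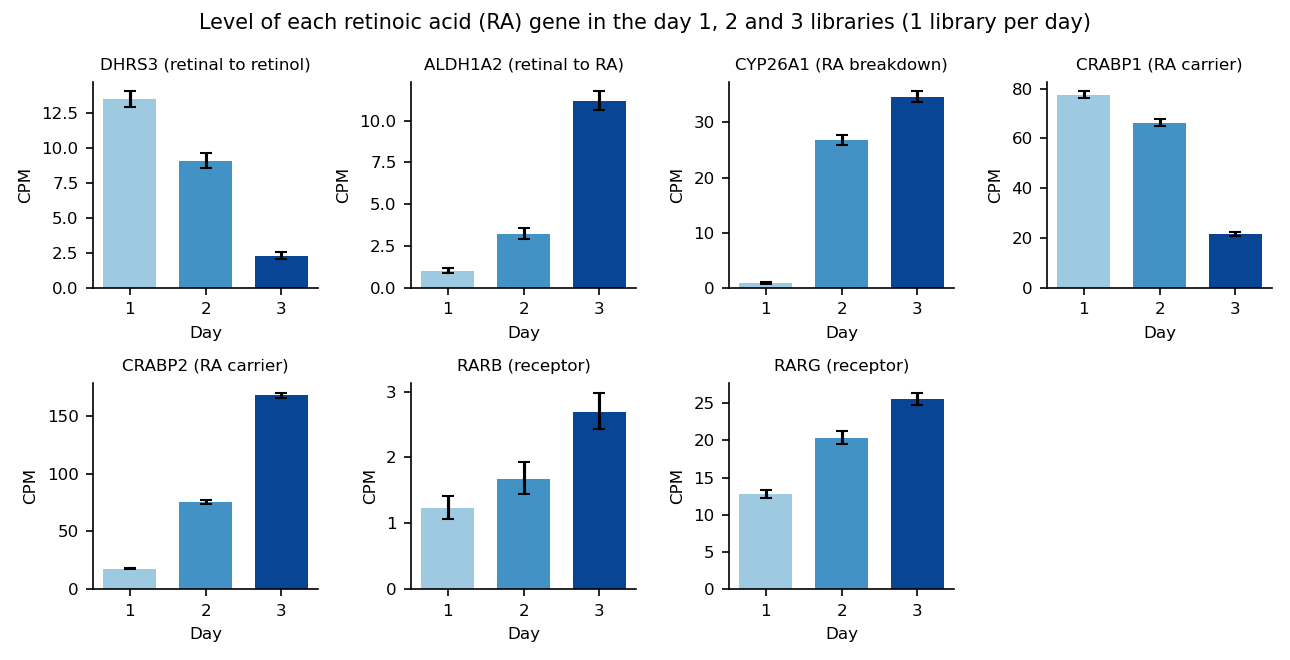
CPM (y axis, linear from 0, own scale per gene) on days 1, 2 and 3 (x axis), 1 library per day, with bars for the level and whiskers for the 95% Poisson interval of the counts. DHRS3 and CRABP1 are lowest on day 3, CRABP2 and ALDH1A2 highest on day 3, and CYP26A1 is near 0 on day 1 only (0.852 CPM).

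The rest of the pathway was read from 70 further genes in 7 lists, of which 40 to 46 were measured in a comparison. In the list of retinol storage, transport and oxidation, 3 of 11 measured genes were higher and 3 lower between day 1 and day 2, and 0 higher and 3 lower between day 2 and day 3. Over all measured genes 21.3% were higher and 5.71% lower in the first step, and 14.2% and 16.7% in the second. LRAT, which esterifies retinol for storage, had 24.8 CPM on day 1, 9.04 on day 2 and 4.64 on day 3, and was 5.34-fold lower on day 3 than on day 1 (4.91 to 5.81). STRA6, the receptor that takes up retinol from its plasma carrier, had 3.50 CPM on day 1 and 7.39 on day 2 and was 3.13-fold higher on day 3 than on day 1 (2.85 to 3.45). The other breakdown enzymes, CYP26B1 and CYP26C1, were under 2 CPM in every library. ALDH1A3, the only measured gene of the retinal oxidation list, had 1.85, 2.40 and 6.37 CPM and was called higher on day 3 (2.66-fold over day 2, 2.32 to 3.04).

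FABP5, a carrier known to take retinoic acid to another receptor family, had 1262 CPM on day 1, 1683 on day 2 and 3005 on day 3. In the receptor list (RARA, RXRA, RXRB and RXRG) 2 of 4 measured genes were called higher on day 3 than on day 2: RXRG with 6.12 CPM after 1.12 CPM, and RARA 1.55-fold (1.43 to 1.68). Among 10 co-regulators 3 were higher on day 2 than on day 1 and 1 on day 3 than on day 2, with 0 lower in both, beside 21.3% and 14.2% of all genes higher; NRIP1, a ligand-dependent co-repressor, had 22.1, 38.8 and 80.0 CPM, and the coactivator NCOA1 was 2.05-fold higher on day 3 than on day 1 (1.99 to 2.12).

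Genes known to respond to retinoic acid had 8 of 14 measured members higher and 3 lower between day 1 and day 2, with a median log2 ratio of 0.90 beside 0.23 over all genes, of which 21.3% were higher and 5.71% lower. In the second step 11 of 19 passed upward and 6 downward, and the median log2 ratio was 0.95 beside 0.01 over all genes, of which 14.2% were higher and 16.7% lower. The highest ratios of that step were those of homeobox genes of the anterior clusters and their MEIS partners, which help set position along the body axis. HOXB2 had 1.22 CPM on day 2 and 55.4 on day 3, HOXB3 0.317 and 23.3, and HOXB4 0.125 and 10.3. MEIS1 had 1.39 and 24.3 CPM and MEIS2 2.61 and 82.7 CPM on these days. HOX genes overlap antisense partners, and the sources used here do not give whether counting used strand.

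The caudal genes differed in time from the HOX genes: CDX1 was 7.27-fold higher on day 2 than on day 1 (6.66 to 7.94) and CDX2 2.26-fold (2.10 to 2.44), and SKAP2, beside the HOXA cluster, 3.38-fold (3.09 to 3.69). FGF8, a streak ligand, had 4.05, 14.2 and 2.81 CPM. ZNF703 was 3.51-fold higher on day 3 than on day 2 (3.14 to 3.93) and BHLHE40 2.46-fold (2.23 to 2.70). The lower genes of the list included pluripotency genes: SOX2 had 186, 80.2 and 6.20 CPM and PRDM14 19.7, 10.0 and 2.11 CPM, and the secreted protein RARRES2 had 144, 90.4 and 34.3 CPM. The list therefore holds genes of several programmes, and its count does not measure retinoic acid.

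Cells were then placed in classes by marker UMIs after thinning to 5000 UMIs. MESP1, an early mesoderm regulator, defined MESP1-positive cells, which numbered 9 on day 1, 1264 on day 2 (18.7% of 6742) and 4233 on day 3 (63.4% of 6675). TBXT or MIXL1 without MESP1 defined streak-marker cells (217, 2816 and 1174), and HAND1 without those 3 genes another class (47, 84 and 894). SOX2 without the other 4 markers marked cells with the pluripotency gene (1837, 1168 and 52), and 1389, 1410 and 322 cells had none. Classes under 50 cells were given no level. MESP1 is itself on the nascent mesoderm list, so the label was read from the other 6 markers. These summed to 323 CPM in MESP1-positive cells on day 2 and 1267 on day 3, each of the 6 at 10 CPM or more, against 11.8 and 47.9 CPM in SOX2-positive cells and 48.7 and 994 CPM in streak-marker cells. On day 2 the MESP1-positive cells also had pluripotency markers at a sum of 1276 CPM and primitive streak markers at 1206 CPM, so the class is called by its rule. Median depth per class ran from 15158 to 16660 UMIs on day 2 and from 15736 to 19777 on day 3, lowest in both in the cells with none of the markers.

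CYP26A1 was highest in MESP1-positive cells. On day 2 it had 67.5 CPM in MESP1-positive cells (64.1 to 71.0), 29.6 in streak-marker cells (28.1 to 31.1), 6.75 in HAND1-positive cells without MESP1 (3.24 to 12.4), 5.40 in cells with none of the markers (4.49 to 6.44) and 3.79 in SOX2-positive cells (3.01 to 4.72). The 3 lowest classes had intervals that touched or lay close together, and the streak-marker and MESP1-positive cells stood above them. MESP1-positive cells exceeded SOX2-positive cells 17.8-fold (14.2 to 22.6) and streak-marker cells 2.28-fold (2.12 to 2.45). Against SOX2-positive cells CYP26A1, ALDH1A2, RARG and CRABP2 were called higher and DHRS3 and CRABP1 lower, where 9.87% of 14483 genes were higher and 12.3% lower; RARB was under 2 CPM in both classes and given no call. Against streak-marker cells CYP26A1, ALDH1A2 and CRABP2 were higher and DHRS3 lower, where 4.92% of genes were higher and 5.76% lower.

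A CYP26A1 UMI was seen in 23.7% of thinned MESP1-positive cells on day 2 (21.4 to 26.2; 44.5% unthinned), 11.8% of streak-marker cells (10.6 to 13.0; 24.2% unthinned) and 1.88% of SOX2-positive cells (1.18 to 2.84; 5.48% unthinned). Median depths were 15864 UMIs in MESP1-positive and 16580 in SOX2-positive cells. The part of free RNA in the droplets in these shares was not tested. MESP1-positive cells held 18.5% of all UMIs of day 2 and 46.1% of those of CYP26A1. Within them CYP26A1 was uneven: 964 of 1264 cells had no UMI after thinning, 209 had 1, and 91 had 2 or more.

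On day 3 the order of the classes changed in part. CYP26A1 had 40.5 CPM in MESP1-positive cells (39.2 to 41.9), 35.8 in streak-marker cells (33.5 to 38.2), 24.3 in cells with none of the markers (20.4 to 28.7), 9.32 in HAND1-positive cells without MESP1 (7.94 to 10.9) and 3.75 in the 52 SOX2-positive cells (1.02 to 9.61, 4 UMIs). Within MESP1-positive cells it was thus 1.66-fold lower than on day 2 (0.601, 0.565 to 0.639), although over all cells it was 1.29-fold higher and MESP1-positive cells were more numerous. The make-up of that class differed between the days: cells with MESP1 but none of HAND1, LHX1, TBX6 and MSGN1 were 46.0% of it on day 2 and 6.69% on day 3, and cells with several of these marker groups 20.4% and 66.4%. The part of this make-up in the lower CYP26A1 level was not tested. CYP26A1 had 54.3 and 67.9 CPM in the cells with MESP1 alone, and 68.6 and 72.2 CPM in MESP1-positive cells with no HAND1 UMI. In streak-marker cells it was 1.21-fold higher on day 3 (1.11 to 1.32), under the call limit, and in cells with none of the markers 4.49-fold higher (3.50 to 5.78), where 15.2% of genes were higher and 8.25% lower. The cells with none of the markers were not alike on both days: definitive endoderm markers summed to 21.3 CPM on day 2 and 263 on day 3, primordial germ cell markers to 31.03 and 210, nascent mesoderm markers to 21.1 and 353 and lateral or extraembryonic mesoderm markers to 40.1 and 334 CPM. The part of these in the ratio was not tested.

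ALDH1A2 had another distribution. On day 2 it had 6.04 CPM in MESP1-positive cells (5.06 to 7.17), against 2.76 in streak-marker cells (2.32 to 3.25) and 2.23 in SOX2-positive cells (1.64 to 2.96). On day 3 its highest class was the HAND1-positive cells without MESP1, at 19.6 CPM (17.6 to 21.8), with 11.5 in cells with none of the markers (8.88 to 14.7), 10.2 in MESP1-positive cells (9.59 to 10.9), 8.37 in streak-marker cells (7.26 to 9.60) and 5.63 in SOX2-positive cells (2.07 to 12.3). HAND1-positive cells without MESP1 exceeded MESP1-positive cells 1.91-fold on day 3 (1.69 to 2.17), but 1.43-fold, under the call limit, when a marker needed 2 UMIs. The share of cells with an ALDH1A2 UMI was 7.38% against 4.44% after thinning and 17.1% against 14.7% without it, and 17 of the 894 HAND1-positive cells without MESP1 had 5 or more of its UMIs. CYP26A1 went the other way in the same comparison, 4.35-fold lower (0.230, 0.195 to 0.269).

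RARB, low in the whole libraries, had 7.50 CPM in HAND1-positive cells without MESP1 on day 3 (6.27 to 8.89) and 1.76 in MESP1-positive cells (156 UMIs), a ratio of 4.26 (3.35 to 5.40). On day 2 it was 6.07 CPM in the same class, on 9 UMIs (2.78 to 11.5), and 0.824 in MESP1-positive cells, on 18 UMIs. That day ALDH1A2 had 2 UMIs in the class (0.223 times the MESP1-positive level, 0.027 to 0.823); RARB was called higher and CYP26A1, ALDH1A2 and RARG lower, where 9.71% of genes were higher and 4.89% lower. Of the 7 genes, ALDH1A2, RARB and DHRS3 were called higher in these HAND1-positive cells than in MESP1-positive cells of day 3 and CYP26A1 and CRABP1 lower, where 10.5% of 14153 genes were higher and 7% lower. These cells also carried more RNA of amnion markers, 293 CPM summed over 8 genes with 7 of them at 10 CPM or more and none at 0, against 85.8 CPM and 2 of 8 in MESP1-positive cells. They carried more of the 7 lateral or extraembryonic mesoderm markers too (1576 against 1041 CPM), and the part of either in the ALDH1A2 and RARB levels was not tested.

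The other members also differed between the classes. CRABP2 on day 3 had 193 CPM in HAND1-positive cells without MESP1 (186 to 199), 176 in MESP1-positive cells (173 to 178), 149 in streak-marker cells (144 to 154), 80.6 in cells with none of the markers (73.3 to 88.3) and 30.0 in SOX2-positive cells (20.5 to 42.4). It was already uneven on day 1, at 34.7 CPM in streak-marker cells (31.3 to 38.4) and 15.1 in SOX2-positive cells (2.30-fold, 2.05 to 2.59), the only one of the 7 genes called there, where 5.03% of genes were higher and 2.9% lower. CRABP1 had the reverse order on day 3, 64.8 CPM in SOX2-positive cells (50.4 to 82.0) and 8.75 in HAND1-positive cells without MESP1 (7.42 to 10.2). In SOX2-positive cells CRABP1 had 82.9 CPM on day 2 (79.1 to 86.9), so its lower level on day 3 did not reach the call limit there.

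DHRS3 was lowest in MESP1-positive cells, at 5.36 CPM on day 2 and 1.11 on day 3 (0.898 to 1.35), and RARG highest there, at 27.7 CPM on both days. The lower DHRS3 and CRABP1 of day 3 were also seen within MESP1-positive and streak-marker cells. DHRS3 was 4.84-fold lower in the former and 2.45-fold lower in the latter than on day 2, and CRABP1 2.30-fold and 2.49-fold lower. In streak-marker cells ALDH1A2 and CRABP2 were called higher, where 15.4% of genes were higher and 12% lower. The streak-marker class did not hold like cells on both days: its 6 nascent mesoderm markers other than MESP1 summed to 48.7 and 994 CPM. The part of this in its ratios was not tested. Within MESP1-positive cells ALDH1A2 was called higher on day 3 and CYP26A1, DHRS3 and CRABP1 lower, where 10.6% of genes were higher and 13.9% lower. That ALDH1A2 ratio was 1.70 (1.41 to 2.05), and 1.28, no longer called, when a marker needed 2 UMIs.

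**Figure D2:**
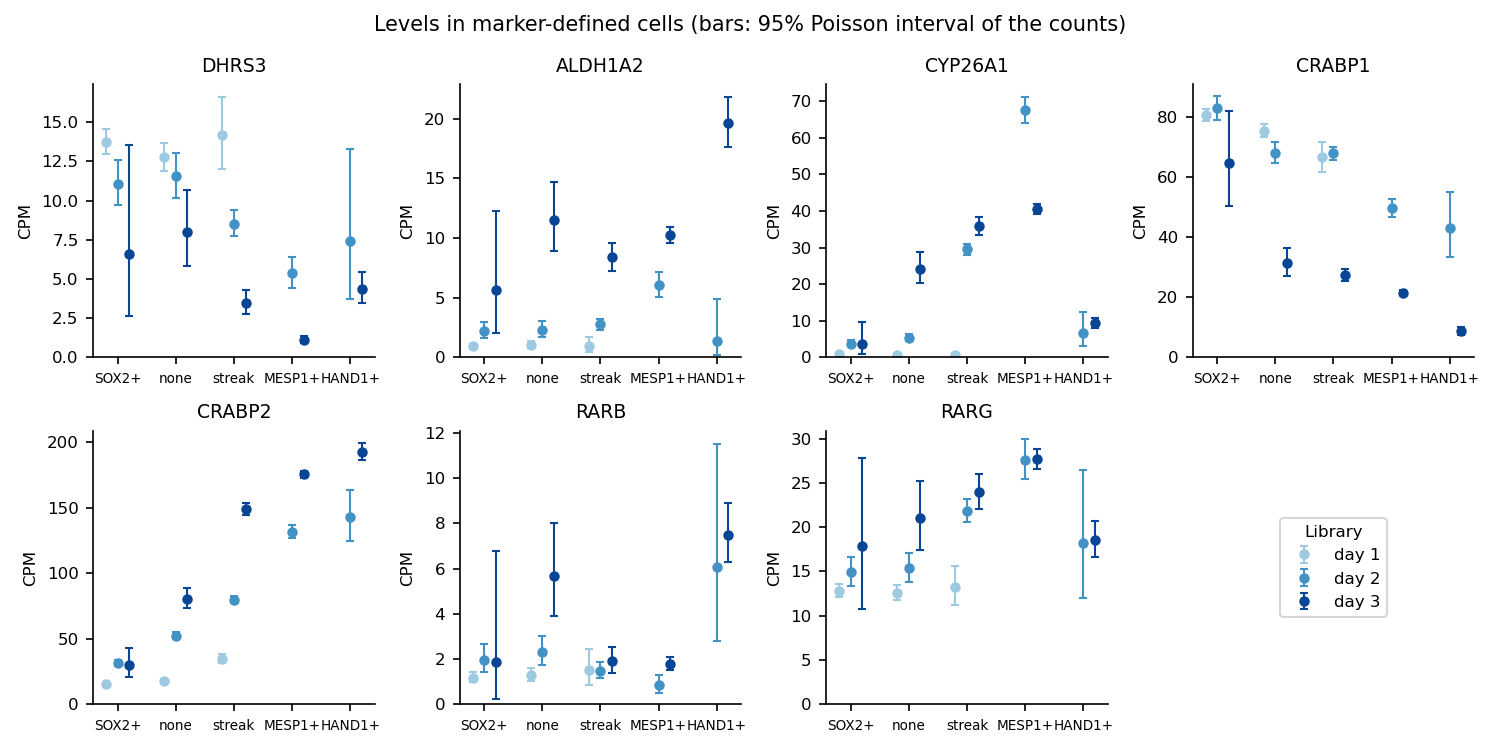
CPM (y axis, linear from 0) of each gene in cells classed by markers (x axis; HAND1+ means without MESP1, TBXT and MIXL1), coloured by library, with 95% Poisson whiskers; classes under 50 cells are absent. CYP26A1 is highest in MESP1-positive cells, 67.5 CPM on day 2 and 40.5 on day 3, while ALDH1A2 and RARB are highest in HAND1-positive cells on day 3 (19.6 and 7.50 CPM).

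**Figure D3:**
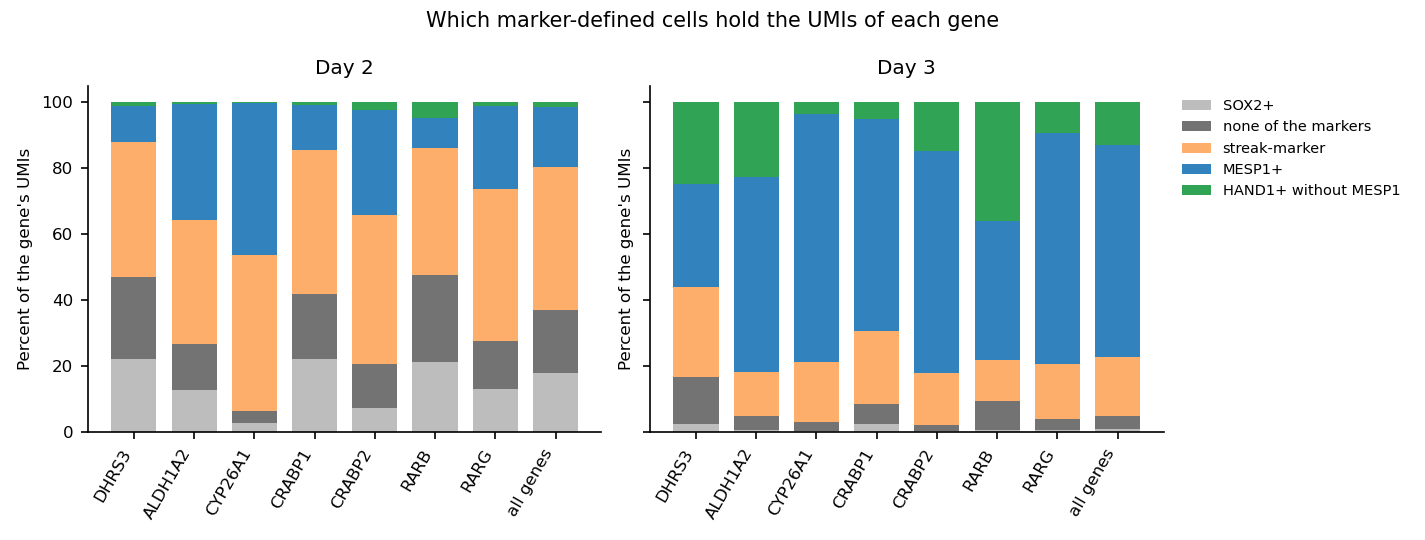
Percent of each gene's UMIs (y axis) held by each marker class on day 2 and day 3, beside all genes (x axis). MESP1-positive cells held 46.1% of CYP26A1 UMIs on day 2 with 18.5% of all UMIs, and HAND1-positive cells without MESP1 held 35.9% of RARB UMIs on day 3 with 12.8% of all UMIs.

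Mesoderm subtypes were separated among MESP1-positive cells by HAND1, a regulator of lateral and extraembryonic mesoderm, by LHX1, a regulator of anterior and axial mesoderm, and by TBX6 or MSGN1, regulators of paraxial mesoderm. On day 2, CYP26A1 had 123 CPM in cells with LHX1 alone (109 to 139, 133 cells), 67.7 in cells with TBX6 or MSGN1 alone (59.2 to 77.2) and 52.9 in cells with HAND1 alone (42.5 to 64.99). LHX1-only cells exceeded HAND1-only cells 2.34-fold (1.83 to 3.00), and CYP26A1 was the only one of the 7 genes called in that comparison (3.65% of all genes higher, 3.42% lower). CRABP2, with a ratio of 0.685 (0.572 to 0.819), passed the limit downward under 5 of the other settings, at 0.596 to 0.666, and RARB, at 0.198 on 1 and 4 UMIs, passed it when TBX6 and MSGN1 were not used in the split (0.206). On day 3 it had 70.0 CPM with LHX1 alone (64.8 to 75.4, 459 cells), 70.1 with TBX6 or MSGN1 alone (61.1 to 80.2) and 22.1 with HAND1 alone (19.4 to 25.04, 535 cells). The first and last differed 3.17-fold (2.73 to 3.69). The sum of definitive endoderm markers was higher in the LHX1-only cells, 541 against 146 CPM on day 2 and 355 against 29.8 on day 3. Of these 6 markers, 3 were at 10 CPM or more in both classes on day 2, and 3 against 1 on day 3. On day 2 CXCR4 was at 0 in LHX1-only cells and FOXA2 in HAND1-only cells. The sum of amnion markers was higher in the HAND1-only cells, at 112 against 42.9 and 185 against 52.6 CPM. Of the 8 amnion markers, 6 were at 10 CPM or more in HAND1-only cells of day 3 and 2 in LHX1-only cells, where VTCN1 was at 0. The part of these in the CYP26A1 and ALDH1A2 ratios was not tested.

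Between LHX1-only and HAND1-only cells of day 3, ALDH1A2 had the opposite order, while cells with TBX6 or MSGN1 alone were near the highest level of both genes. ALDH1A2 was at 8.53 CPM with LHX1 alone (6.79 to 10.6), 16.8 with HAND1 alone (14.5 to 19.4) and 16.3 with TBX6 or MSGN1 alone (12.1 to 21.5). LHX1-only cells were 1.97-fold lower than HAND1-only cells (0.507, 0.387 to 0.661). With CRABP1, 28.4 against 14.4 CPM, 2 of the 7 genes were higher and 1 lower in that comparison, where 8.84% of genes were higher and 8.34% lower. That count moved with the class rule: RARB (0.619) passed the limit downward under 3 other settings, at 0.0769 to 0.549, and DHRS3 (0.754, under 2 CPM in both) under 2 of them, at 0.350 and 0.495. On day 2 its levels were 5.12 CPM with LHX1 alone and 5.87 with HAND1 alone, on 11 and 10 UMIs, with overlapping intervals.

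Most MESP1-positive cells of day 3 carried both HAND1 and LHX1. A split by these 2 genes alone was therefore added after the values were seen. On day 2, CYP26A1 had 57.5 CPM in MESP1-positive cells with neither gene, 116 with LHX1 only, 99.1 with both and 43.0 with HAND1 only. It was high wherever LHX1 was present. On day 3 the values were 68.7, 74.5, 30.8 and 26.0 CPM in the same order, low wherever HAND1 was present, with or without LHX1. By HAND1 UMIs per thinned cell, CYP26A1 on day 3 had 72.2 CPM at 0 (68.8 to 75.8), 47.5 at 1 (44.3 to 50.9), 27.2 at 2 to 3 (25.3 to 29.2) and 18.2 at 4 or more (16.4 to 20.1). On day 2 it had 68.6 CPM at 0 (64.7 to 72.7), 73.3 at 1 (63.4 to 84.4) and 59.5 at 2 to 3 (47.8 to 73.2), with overlapping intervals. The bin of 4 or more held under 50 cells on day 2 and was given no level, so the days cannot be compared there. Cells with HAND1 only had 0.748 times the CYP26A1 level of cells with neither gene on day 2 (0.616 to 0.901) and 0.379 times on day 3 (0.333 to 0.431). By LHX1 UMIs CYP26A1 was flat on day 3, from 38.2 to 42.1 CPM over the 4 bins.

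ALDH1A2 did not follow HAND1 content on day 3, with 11.1, 10.7, 9.21 and 10.4 CPM over the HAND1 bins. It was lower with more LHX1, at 14.6 CPM with 0 LHX1 UMIs (13.1 to 16.2) and 7.87 with 4 or more (7.02 to 8.81).

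**Figure D4:**
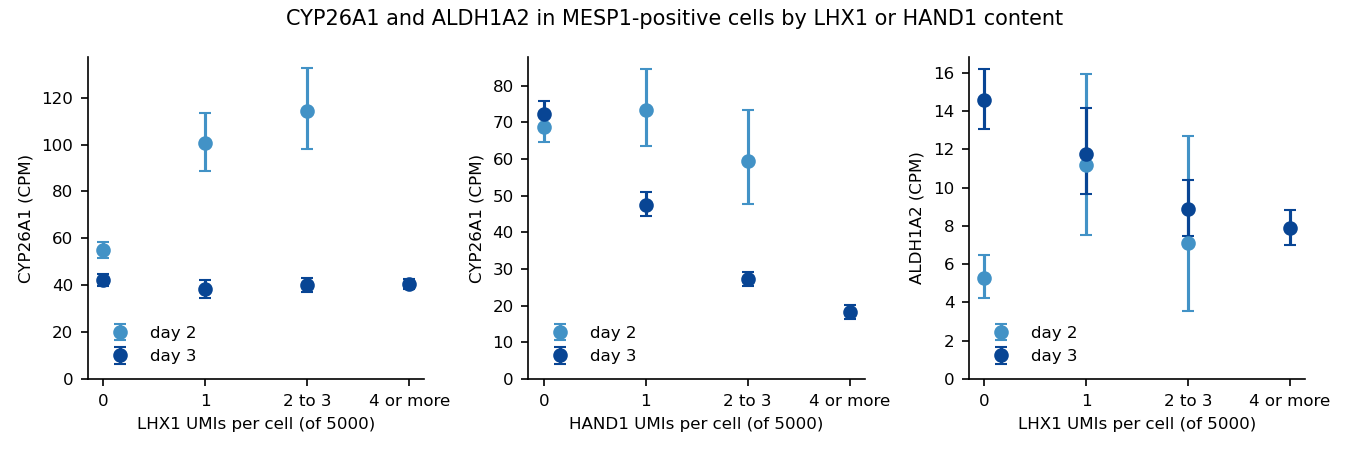
CPM (y axes, linear from 0) of CYP26A1 or ALDH1A2 in MESP1-positive cells by LHX1 or HAND1 UMIs per cell thinned to 5000 (x axes), days 2 and 3, with 95% Poisson whiskers; bins under 50 cells are absent. CYP26A1 falls from 72.2 to 18.2 CPM with HAND1 content on day 3 (68.6, 73.3 and 59.5 CPM on day 2), while by LHX1 it is flat on day 3 and differs on day 2 (54.9, 100.5 and 114 CPM).

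Individual cells seldom showed both enzymes. Of 4233 MESP1-positive cells on day 3, thinned, 537 had a CYP26A1 UMI, 188 an ALDH1A2 UMI and 20 both, where the product of the shares gives 23.8. Without thinning 181 had both, and the product gives 179.7, close to the count. CYP26A1 and CRABP1 were found together in 82 thinned cells where the product gives 52.5, and in 500 where it gives 371.2 without thinning, a count that also moves with depth.

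The 537 cells with a CYP26A1 UMI were compared with the 3696 without, on thinned counts of genes with at least 10 CPM in either set; the cells are from 1 library and are no replicates. Of all genes 3.01% were higher and 2.83% lower. Of the primitive streak list 4 of 5 measured genes were higher: TBXT 1.53-fold (1.32 to 1.75), MIXL1 1.63-fold, EOMES 1.57-fold and GSC, an anterior streak regulator, 2.26-fold (1.72 to 2.95). Of 6 definitive endoderm markers 2 were measured, and both were higher. CER1, a secreted NODAL and BMP inhibitor, had 350 against 110 CPM (2.96 to 3.46 times as much), and SOX17 14.5 against 4.60 CPM (3.16-fold, 2.10 to 4.67). SOX17 reached 10 CPM only in the cells with CYP26A1, so it could be counted only as higher.

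Of the lateral or extraembryonic mesoderm list 4 of 6 were lower: HAND1 (260 against 483 CPM), FOXF1, the ligand BMP4 (244 against 429 CPM) and TBX20. No gene of the nascent mesoderm list was called, MESP1 itself having chosen the cells. Of the members CRABP1 was called higher, at 35.4 against 19.5 CPM (1.82-fold, 1.43 to 2.28). GATA3 and PAX2 were lower, as were the caudal genes CDX2 and CDX4.

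Of the genes known to respond to retinoic acid, 8 of 13 measured were lower in cells with CYP26A1 and none higher. HOXB2 had 24.95 against 60.8 CPM (2.44-fold lower), MEIS2 28.7 against 74.7 CPM (2.61-fold lower), HOXB3 9.68 against 22.7, HOXB4 2.61 against 10.5 and MEIS1 10.8 against 18.8 CPM. CDX2 and SKAP2 were also lower. HOXB4 reached 10 CPM only in the cells without CYP26A1, so it could be counted only as lower. HAND1 moved with these response genes, and so the cells with and without a HAND1 UMI were taken separately, a step added after the values were seen. Only chosen genes were read in this step, so no share of all genes called stands beside its calls. Without HAND1 (242 against 826 cells), HOXB2, MEIS2, CDX2 and SKAP2 were lower, HOXB2 at 9.09 against 21.1 CPM and MEIS2 at 16.5 against 38.0 CPM. The ratio of HOXB3 was 0.553 without HAND1 (6 and 37 UMIs) and 0.508 with it, and that of HOXB4 0.310 (1 and 11 UMIs) and 0.319; neither was called without HAND1, where the intervals reached 1.32 and 2.13. MEIS1 had a ratio of 0.991 without HAND1 (0.415 to 2.13) and 0.614 with it. With HAND1 (295 against 2870 cells), HOXB2, HOXB3, HOXB4, MEIS1, MEIS2 and SKAP2 were lower and CDX2 was not called, with HOXB2 at 38.0 against 72.3 CPM. CER1 was higher in both, 2.14-fold (1.89 to 2.42) and 3.75-fold (3.38 to 4.15), and TBXT had ratios of 1.03 without and 1.63 with HAND1, a difference that was not tested.

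On day 2 the 300 MESP1-positive cells with CYP26A1 differed from the 964 without in fewer listed genes, with 1.59% of all genes higher and 2.32% lower. LHX1 was 1.81-fold higher (1.54 to 2.13) and CER1 3.41-fold (3.01 to 3.87). HAND1, BMP4, MSGN1, ISL1, CDX2 and NKX1-2 were lower, and so were SKAP2 and SOX2. Of the response list 4 of 8 measured genes were lower and none higher.

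The 188 MESP1-positive cells of day 3 with an ALDH1A2 UMI were compared in the same way with 4045 without. Of all genes 3.23% were higher and 1.11% lower. HOXA3, the only called gene of 13 measured on the response list, was 5.00-fold higher, on 10 UMIs (2.24 to 10.1). It met the minimum of 10 CPM only through the cells with ALDH1A2, and narrowly, so it could be counted only as higher. TBX20, a cardiac and lateral mesoderm regulator, was 2.38-fold higher (1.59 to 3.46), the only called gene of 6 measured lateral or extraembryonic mesoderm markers. ISL1 was 1.86-fold higher (1.33 to 2.56), the only called gene of 3 measured amnion markers. CRABP1, CER1 and MESP2 were lower, CER1 at 92.6 against 142 CPM. CER1 was 1 of 2 measured definitive endoderm markers and MESP2 1 of 7 nascent mesoderm markers. TBX20, CER1 and CRABP1 thus differed in the opposite sense to the cells with CYP26A1.

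**Figure D5:**
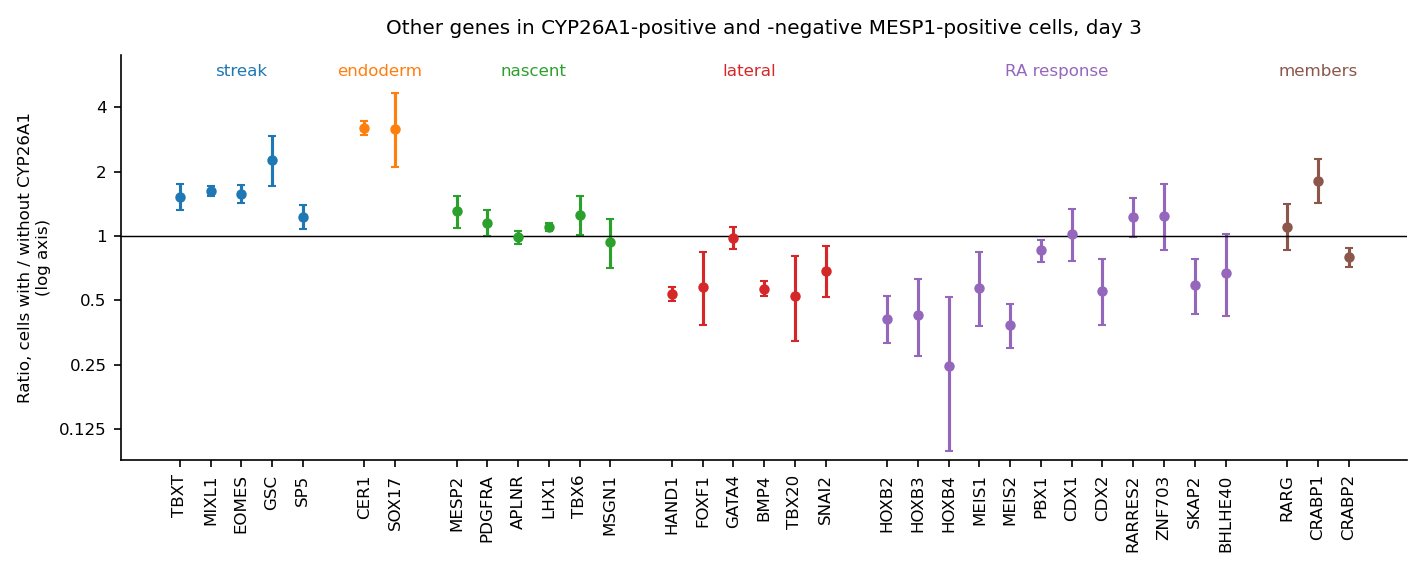
Ratio of CPM in MESP1-positive cells of day 3 with and without a CYP26A1 UMI (y axis, log scale; 537 and 3696 cells), for listed genes with at least 10 CPM (x axis, grouped by list), with 95% binomial whiskers. CER1 and SOX17 lie above 3, HAND1, BMP4 and TBX20 between 0.524 and 0.568, and HOXB2 and MEIS2 at 0.410 and 0.384.

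Likeness of pattern was measured by Pearson's r of log2(CPM + 1) over 13 points, each a class of at least 50 cells in 1 library, among 8807 genes with 20 CPM or more in their highest class. The points share libraries and classes, so r is a description. The 5 genes most like CYP26A1 were FGF17 (0.97), SPATA16, ACSS3, MAPK10 and EGF; RARG among the members had 0.97 and RARB 0.08. Those most like ALDH1A2 were EDARADD (0.99), NEK2, SAP30BP, LINC02614 and PDE8A. For DHRS3 they were TNFRSF12A (0.97), SYNJ2, GNA14, WEE1 and APELA, and for CRABP2 they were CITED2 (0.99), MALT1, RDX, OBI1 and VEZF1. CRABP1 and CRABP2 had an r of -0.79.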

How the data were processed

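The authors deposited, for each of 3 libraries, a matrix of UMI counts per gene and cell barcode; per the submitters' processing notes the tool was Cell Ranger 5.0.1 and the build hg38. Counts were used as deposited. Barcodes under 1000 detected genes or over 20% mitochondrial UMIs were dropped. Automatic doublet calls were 4, 0 and 1, which is no working call, so the highest Scrublet scores (scanpy 1.11.5; 0.8% per 1000 barcodes: 144, 668 and 457) were removed. UMIs were summed over cells and divided by the total; Poisson and Clopper-Pearson 95% intervals cover counting error only. No test was run, since each day is 1 library. Classes and shares used cells thinned to 5000 UMIs (34, 482 and 129 shallower cells left out); class levels used their full counts. TMM (edgeR 4.0.16) and DESeq2 1.42.0 gave other scalings of the summed counts. Promoter sequences are from RefSeq, gene positions from GENCODE. Some genes counted in the lists are not reported here by name. Members and lists were chosen with earlier results of these data known. Beside the members, pathway genes were named for a ratio of at least 2 between any days with 10 CPM or more, and 5 genes per pattern by correlation; RXRG, ALDH1A3, CYP26B1, CYP26C1 and the genes named in comparisons of cells with and without a UMI stand outside that rule and were chosen after their values were seen.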

Additional observations from a re-analysis of the deposited data

Results flagged for a closer look

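The change in CYP26A1 between day 2 and day 3 had opposite signs in different marker classes: its CPM ratio was 0.601 in MESP1-positive cells and 4.49 in cells with none of the class markers. The last class did not hold like cells on both days, with definitive endoderm markers summing to 21.3 and 263 CPM and nascent mesoderm markers to 21.1 and 353 CPM, and the part of this in the ratio was not tested. ALDH1A2 in HAND1-positive cells without MESP1, set against MESP1-positive cells of the same library, had a ratio of 0.223 on day 2 (0.027 to 0.823, on 2 UMIs in 84 cells) and 1.91 on day 3. In each case the intervals exclude 1 on opposite sides, and the difference itself was not tested, since each day is 1 library.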

How the results depend on the processing

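No paired analysis was possible because each day is 1 library with no replicate. No called ratio of the 7 genes turned in direction under the alternatives that gave a value. The median log2 ratio of all genes did with TMM factors, from 0.23 to -0.10 (day 2 over day 1) and from 0.25 to -0.08 (day 3 over day 1), and the share of higher among all calls of the first step went from 78.9% to 34.9%. One member was called lower between day 1 and day 2 (DHRS3) with TMM or median-of-ratios scaling, without ribosomal and mitochondrial genes in the total, or in cells of at least 10000 UMIs, against 0. Pathway genes called higher numbered 8 (against 14, day 2 over day 1) and called lower 4 (against 9, day 3 over day 2) with at least 10 CPM, 28 (against 14) and 28 (against 16) higher in the first and second step with no minimum, and 8 higher and 3 lower (against 14 and 6) in the first step with a call at a ratio of 2. With TMM factors 10 pathway genes were higher and 8 lower in the first step, against 14 and 6, and 22 and 8 from day 1 to day 3, against 24 and 6.

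On the log2 scale CYP26A1 in MESP1-positive over SOX2-positive cells of day 2 was 4.73 with 2 UMIs per marker, against 4.15. LHX1-only over HAND1-only cells of day 3 gave 1.44 with 2 UMIs per marker, 2.29 with classes from 10000 UMIs and 2.10 with mesoderm defined by 2 of 10 genes, against 1.66. HAND1-positive cells without MESP1 over MESP1-positive cells gave -2.46 with 2 UMIs and -2.49 with 10000 UMIs, against -2.12, and for ALDH1A2 0.52 with 2 UMIs, 1.43 with 2 of 10 genes and 1.28 with thinned counts, against 0.94. CYP26A1 in MESP1-positive cells, day 3 over day 2, was -1.02 with 2 of 10 genes, against -0.73. The cause of these shifts was not tested. The share of cells with a CYP26A1 UMI was 15.4% and 17.5% on days 2 and 3 at 10000 UMIs, and 3.32%, 20.7% and 24.3% unthinned. ALDH1A2 within MESP1-positive cells, day 3 over day 2, was 1.28-fold with 2 UMIs per marker and 1.31-fold with thinned counts, no longer called against 1.70. The ratio of RARB in LHX1-only over HAND1-only cells of day 2 had no value with thinned counts. Depth limits RARB, DHRS3 on day 3, and every level in the 52 SOX2-positive cells of day 3.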

Other observations

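The highest cells of day 3 were looked at after the values were seen, with no test. Of 6675 cells, 43 (0.644%) had 5 or more ALDH1A2 UMIs and together held 23.4% of its UMIs. By class 19 were MESP1-positive, 17 HAND1-positive without MESP1 and 5 streak-marker cells, and none was SOX2-positive. Of all 6675 cells these classes held 63.4%, 13.4%, 17.6% and 0.779%, in the same order. Leading genes of the 43 cells were PRRX1, a limb and lateral plate regulator, at 229 CPM against 13.1 in the remaining cells, RSPO2 at 348 against 23.5, HAND2 at 124 against 7.75 and the cardiac actin ACTC1 at 1491 against 152 CPM. PRRX1 was seen in 27 of the 43 cells, RSPO2 in 17, HAND2 in 20 and ACTC1 in 37. ISL1 (147 against 30.0 CPM) and TBX20 (120 against 19.6 CPM) were also higher, RARB had 12.4 against 2.61 CPM on 13 UMIs, and CER1 was lower (18.2 against 117 CPM). Other genes of the amnion list, which also holds ISL1, were higher too: HEY1 had 69.8 against 8.23 CPM (8.48-fold) and DLX5 37.3 against 4.41 CPM (8.45-fold). IGFBP3 was 3.46-fold, TFAP2A 2.74-fold, GATA3 2.02-fold and GABRP, on 7 UMIs, 2.60-fold higher, while VTCN1 had 0 UMIs. HEY1 was seen in 23 of the 43 cells, DLX5 in 10 and IGFBP3 in 6. Of the lateral or extraembryonic mesoderm list, which also holds HAND2 and TBX20, GATA4 was 2.13-fold and HAND1 1.30-fold higher. For FOXF1 (0.944, 0.549 to 1.52), BMP4 (1.08, 0.985 to 1.19) and SNAI2 (1.12, 0.796 to 1.53) the intervals included 1. Median depth was 24270 UMIs against 19373.

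In the same library 128 cells (1.92%) had 8 or more CYP26A1 UMIs and held 31.1% of its UMIs. By class 88 were MESP1-positive and 28 streak-marker cells, where these classes held 63.4% and 17.6% of all cells. In the 128 cells CER1 had 511 against 107 CPM, SOX17 61.0 against 12.2, GSC 35.3 against 10.9 and HAND1 192 against 455 CPM, while HAND2 rested on 3 UMIs. CER1 was seen in 89 of the 128 cells, GSC in 61 and SOX17 in 19, so the SOX17 level rests on few of them. Of the other definitive endoderm markers, FOXA2 had 11.2 against 1.05 CPM (10.6-fold, 7.18 to 15.3), seen in 11 cells. HHEX had 5.44 against 0.612 CPM (8.88-fold, 5.02 to 14.9), seen in 13 cells. PRDM1 was 1.40-fold higher (1.08 to 1.79), and for CXCR4 (1.30, 0.830 to 1.95) the interval included 1. A single cell held 164 CRABP2 UMIs on day 3, out of 23117 in all cells.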
